A study of Mus musculus with 7 samples.

Results

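The core binding factors were followed in primary neurospheres of the adult mouse hippocampus, with and without Med23. The group was chosen by name and holds 4 genes, Runx1, Runx2, Runx3 and Cbfb, of the 24346 genes in the deposited table. RNA was sequenced from 7 libraries, each from the neurospheres of a single mouse, of which 4 were control (WT_215, WT_116, WT_213 and WT_220) and 3 were Med23 CKO (KO_117, KO_214 and KO_218). Med23 CKO mice carried Nestin-CreER and 2 floxed Med23 alleles, in which exons 5 to 7 lie between the loxP sites. The controls, labelled wild type, were littermates that the methods describe as Med23 flox/+ or Med23 flox/flox. Mice of both groups were C57/BL6, gave cells at the age of 2 months and had received tamoxifen by gavage (200 mg/kg daily for 5 days, at the age of 2 months in the labels and at a younger age for cultures in the methods). All cells were grown in medium with EGF and FGF. In this model the Nestin promoter sets which cells express the recombinase, so cells in the culture that never use Nestin keep Med23. According to the paper, endothelial cells also express Cre from Nestin. Values are FPKM, that is, fragments normalized to transcript length and to the mapped fragments of the library.

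Runx1, Runx2 and Runx3 encode transcription factors that bind DNA through the Runt domain. Cbfb encodes core binding factor beta, which does not bind DNA by itself but joins the Runt domain and strengthens its hold on the site. Runx1 is known for blood formation and is also used by microglia, the macrophages of the brain, while Runx2 is the master factor of bone formation and Runx3 acts in lymphocytes and proprioceptive sensory neurons. Med23, a subunit of the Mediator complex that links transcription factors with RNA polymerase II, has been described as a partner of Runx2 in bone-forming cells.

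The Runx genes are paralogs, and the sequences below show how alike their coding parts are, since reads from one paralog could be counted for another. In the GENCODE M21 annotation of GRCm38, which is mm10, Runx1 lies on the reverse strand of chr16:92601466-92826149, Runx2 on the reverse strand of chr17:44495987-44814797, Runx3 on the forward strand of chr4:135120652-135177990 and Cbfb on the forward strand of chr8:105170674-105217989. The transcript with the longest coding sequence of each gene was used. The stretch of 90 coding bases of Runx1 with the most matches, summed over Runx2 and Runx3 without gaps, was taken. It lies in the part for the Runt domain. This stretch crosses from exon 3 into exon 4 of Runx1 (chr16:92689127-92695567) and of Runx2 (chr17:44724896-44735316), and from exon 2 into exon 3 of Runx3 (chr4:135152973-135155287). Its bases are printed on the strand of each gene, with capitals at the positions where the 3 genes are not all alike.
Runx1: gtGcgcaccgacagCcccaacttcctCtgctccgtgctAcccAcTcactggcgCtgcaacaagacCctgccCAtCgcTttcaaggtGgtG
Runx2: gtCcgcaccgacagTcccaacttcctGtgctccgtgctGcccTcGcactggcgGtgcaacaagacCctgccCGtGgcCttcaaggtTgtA
Runx3: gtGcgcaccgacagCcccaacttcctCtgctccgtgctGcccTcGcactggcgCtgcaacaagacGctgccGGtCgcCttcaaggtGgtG

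Of these 90 positions, 76 (84.4%) were alike in all 3 genes. Over longer local alignments of the coding sequences, Runx1 and Runx2 were alike at 72.7% of 1217 bases, Runx1 and Runx3 at 75.7% of 1231 bases, and Runx2 and Runx3 at 79.3% of 497 bases. The longest run that transcripts of different Runx genes shared was 38 bases, between Runx1 and Runx3, and no word of 50 bases was shared by any pair of the 4 genes (0 words). The exons of Runx1 overlapped an antisense gene, Gm26626, by 106 bases (0.881% of the bases of its exons), and those of Runx2 overlapped Runx2os1 by 519 bases (5.87%). The library kit is not stated to keep the strand, so reads in these overlaps cannot be assigned to one partner.

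A further stretch is shared outside the coding parts. Among the RefSeq promoter windows of GRCm38.p6, each of 300 bases around a start site, there were 2 windows for Runx1, 1 for Runx2, 2 for Runx3 and 1 for Cbfb. One window of each Runx gene, at the more upstream start where there were 2, held the same run of 18 bases with 2 copies of ACCACA, which is TGTGGT on the opposite strand, the core of the site that Runx proteins bind. The run is shown with 6 bases on either side and both copies in capitals.
Runx1: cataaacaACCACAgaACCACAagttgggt
Runx2: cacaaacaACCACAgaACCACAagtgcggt
Runx3: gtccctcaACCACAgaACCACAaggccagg

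These windows lie on the reverse strand at chr16:92826025-92826054 for Runx1, on the reverse strand at chr17:44814583-44814612 for Runx2 and on the forward strand at chr4:135120503-135120532 for Runx3. Relative to the start site they run from position 21 to 50 in Runx1, from 16 to 45 in Runx2 and from -142 to -113 in Runx3. Counted on both strands, TGTGGT was found in 16.8% of all 32851 windows, and in 1.81% it was found 2 or more times. The 18-base run was found in 4 windows (0.0122%), those of the 3 Runx genes and of Gm16225, whose window overlaps that of Runx3 on the other strand. Neither the other window of Runx1, nor that of Runx3, nor that of Cbfb held TGTGGT, and these 3 windows had GC contents of 69.0%, 77.3% and 69.7%. FPKM covers the whole gene, so transcripts from different starts of a gene are not separated in the values that follow.

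The libraries were first compared as a whole. Between 16841 and 18113 genes were above 0 in a library, and the correlation of log2(FPKM + 1) across genes was between 0.907 and 0.990 for the 21 pairs of libraries. The depth of the libraries is unknown. All 13 markers of neural stem cells were detected, among them Fabp7 (203 to 1557 FPKM), Vim (708 to 1694 FPKM) and Nes (61.1 to 240.5 FPKM), whereas the T cell marker Cd3g was listed at 0 in every library. Library KO_214 stood apart in markers of microglia and macrophages, with a summed level of 2071 FPKM over 20 genes against 79.7 to 481 FPKM in the other 6. Med23, the targeted gene, was between 10.1 and 12.9 FPKM in control and between 8.12 and 9.97 FPKM in Med23 CKO (log2 fold change -0.26, two-sided exact permutation test, p = 0.0571), and the groups did not overlap. These values cover the whole gene, and the deleted exons were not measured separately.

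**Figure D1:**
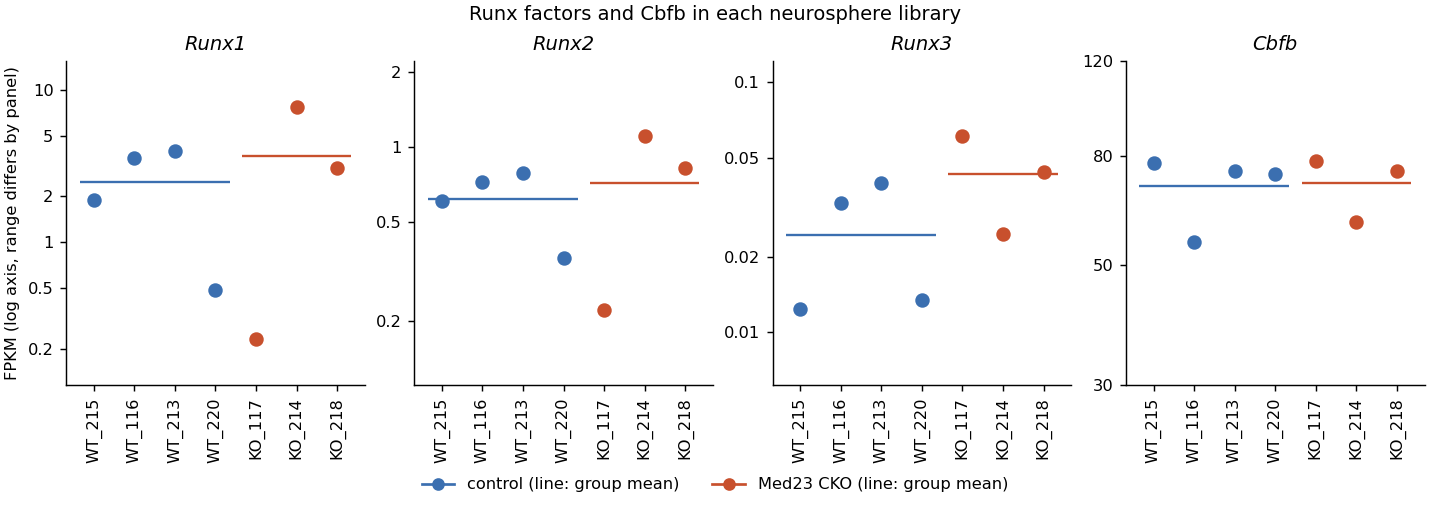
FPKM of Runx1, Runx2, Runx3 and Cbfb in each of the 4 control (blue) and 3 Med23 CKO (red) libraries, on log axes whose range differs by panel, with a line at each group mean. Runx1 spans 0.233 to 7.72 FPKM within the Med23 CKO group alone, while Cbfb stays between 55.2 and 78.4 FPKM in all 7 libraries.

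None of the 4 genes separated the groups, and Runx1 and Runx2 varied more within a group than between the groups. Of the 3 members that reached a mean of 0.5 FPKM and entered the comparison of 14151 genes, 0 passed an adjusted p under 0.05 in limma's moderated test on log2(FPKM + 1), as did 0 of all genes tested, and an unadjusted p under 0.05 was reached by 0 members, against 1.5% of all genes tested (0.502% higher and 0.996% lower in Med23 CKO). The 3 Med23 CKO values lay wholly above or below the 4 control values for 0 of these 3 members, and for 2.32% of all genes tested (0.784% above and 1.53% below).

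Runx1, the blood and microglial factor, was measured at 1.89, 3.59, 3.99 and 0.487 FPKM in control libraries WT_215, WT_116, WT_213 and WT_220. In Med23 CKO it was at 0.233, 7.72 and 3.09 FPKM in KO_117, KO_214 and KO_218. Both the lowest and the highest of the 7 values belonged to the Med23 CKO group and were 33.1-fold apart. Control libraries averaged 2.49 ± 1.62 FPKM (SD, n = 4) and Med23 CKO libraries 3.68 ± 3.78 FPKM (SD, n = 3). The log2 fold change was 0.16 (standard error 0.70, 95% interval -1.48 to 1.80, limma, Benjamini-Hochberg adjusted p = 0.9999). This interval holds changes of more than 2-fold in either direction. The log2 ratio of the group mean FPKM was 0.57, and with a pseudocount of 0.1 in place of 1 the log2 fold change was -0.016. Without KO_214 the log2 fold change of Runx1 was -0.49, and without KO_117 it was 0.92.

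Runx2, the bone factor and the member described as a partner of Med23, was close to the limit of the comparison in every library. It was at 0.603, 0.718, 0.784 and 0.359 FPKM in control libraries WT_215, WT_116, WT_213 and WT_220. In Med23 CKO libraries KO_117, KO_214 and KO_218 it was at 0.222, 1.10 and 0.824 FPKM. As for Runx1, KO_117 was the lowest, WT_220 the next, and KO_214 the highest, and the order of all libraries was the same for both genes except for the place of KO_218. Control libraries averaged 0.616 ± 0.187 FPKM (SD, n = 4) and Med23 CKO libraries 0.716 ± 0.451 FPKM (SD, n = 3). The log2 fold change was 0.058 (standard error 0.25, 95% interval -0.52 to 0.63, limma, adjusted p = 0.9999). With a pseudocount of 0.1 in place of 1 it was 0.030, and the log2 ratio of the group mean FPKM, in which KO_214 weighs more, was 0.22 (exact permutation test, two-sided, p = 0.714). Without KO_214 the log2 fold change of Runx2 was -0.11, and without KO_117 it was 0.29.

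Runx3, the factor of lymphocytes and sensory neurons, was barely detected and did not enter the comparison across genes. It was at 0.0123, 0.0328, 0.0396 and 0.0135 FPKM in control libraries WT_215, WT_116, WT_213 and WT_220. In Med23 CKO libraries KO_117, KO_214 and KO_218 it was at 0.0609, 0.0246 and 0.0437 FPKM. The groups overlapped, and the highest value was in KO_117, the library with the lowest Runx1 and Runx2. The difference in mean log2(FPKM + 1) was 0.026 (exact permutation test, two-sided, p = 0.2, where the smallest p that 4 against 3 libraries allow is 0.0286). At this level the scale flattens differences: the log2 ratio of the group mean FPKM was 0.81 (two-sided p = 0.2 by exact permutation), and with a pseudocount of 0.1 the difference was 0.20. With the depth unknown, it cannot be said how many fragments lie behind values of this size.

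Cbfb, the shared partner, was the steady member. It was at 77.4, 55.2, 74.8 and 74.1 FPKM in control libraries WT_215, WT_116, WT_213 and WT_220. In Med23 CKO libraries KO_117, KO_214 and KO_218 it was at 78.4, 60.3 and 74.9 FPKM. The lowest values were in one library of each group, WT_116 and KO_214, and the groups overlapped over nearly their whole range. Control libraries averaged 70.4 ± 10.2 FPKM (SD, n = 4) and Med23 CKO libraries 71.2 ± 9.59 FPKM (SD, n = 3). The log2 fold change was 0.020 (standard error 0.18, 95% interval -0.41 to 0.45, limma, adjusted p = 0.9999). Leaving out one library at a time moved this value between -0.091 (without WT_116) and 0.13 (without KO_214).

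**Figure D2:**
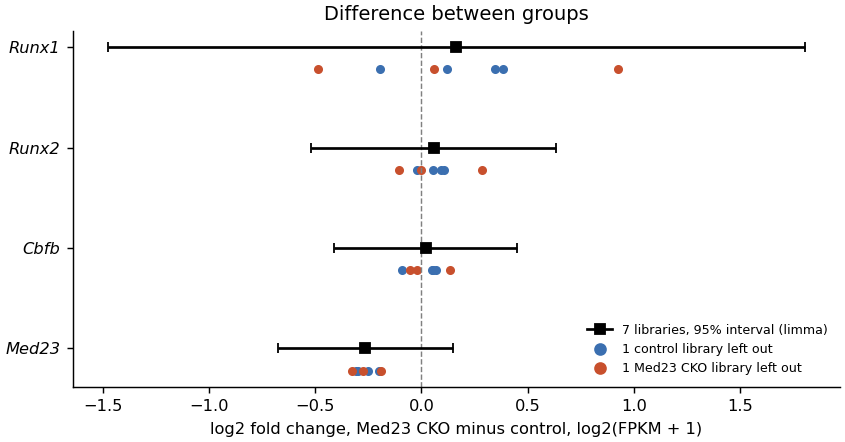
Log2 fold change of Med23 CKO against control on log2(FPKM + 1) for Runx1, Runx2, Cbfb and Med23, as black squares with the 95% interval from limma over 7 libraries, and as small circles with one control (blue) or one Med23 CKO (red) library left out. Every interval crosses 0, and the circles of Runx1 run from -0.49 to 0.92.

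The spread of the members was set against that of the other genes. The standard deviation of log2(FPKM + 1) over the 7 libraries was 1.002 for Runx1, and 93.1% of the 14151 genes tested had a smaller one. For Runx2 it was 0.27, with 31.6% of genes below it, and for Cbfb it was 0.20, with 15.9% below it. The median over all genes tested was 0.37. As the scale flattens low genes, the value of Runx2 is not to be set directly against that of Cbfb, and in FPKM the highest value over the lowest was 33.1 for Runx1, 4.98 for Runx2, 4.94 for Runx3 and 1.42 for Cbfb.

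The order of the levels was Cbfb, Runx1, Runx2 and Runx3 in each of the 7 libraries. Since FPKM is normalized to length, neighbours in this order were compared within libraries. Cbfb was above Runx1 by 4.43 ± 1.13 (SD, n = 7) in log2(FPKM + 1), Runx1 above Runx2 by 1.02 ± 0.74 (SD, n = 7), and Runx2 above Runx3 by 0.66 ± 0.27 (SD, n = 7). Each of the 3 differences had the same sign in 7 of 7 libraries, which is a description, since the order was read from the same libraries. In FPKM, Cbfb was 7.81-fold to 336-fold above Runx1 and Runx2 was 3.64-fold to 48.99-fold above Runx3. Runx1 was closest to Runx2 in KO_117 (1.05-fold) and WT_220 (1.36-fold) and farthest above it in KO_214 (7.0-fold), with a median of 3.75-fold. Among the genes above 0 in a library, Cbfb stood above 90.9% to 94.2% of them, Runx1 above 16.9% to 53.0%, Runx2 above 16.4% to 26.8% and Runx3 above 0.359% to 7.52%.

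Cbfb transcript exceeded that of its 3 DNA-binding partners together in all libraries. The summed FPKM of Runx1, Runx2 and Runx3 was 2.50, 4.34, 4.81 and 0.859 in control libraries WT_215, WT_116, WT_213 and WT_220. In KO_117, KO_214 and KO_218 of the Med23 CKO group it was 0.516, 8.85 and 3.96. Cbfb was thus 12.7-fold to 86.2-fold above the sum in control, and 6.81-fold (KO_214), 18.9-fold (KO_218) and 152-fold (KO_117) above it in Med23 CKO. Runx1 made up 56.7% to 82.9% of the sum in control and 45.2%, 87.3% and 78.1% in KO_117, KO_214 and KO_218. Runx2 held the greater part of the rest in all libraries, and its share was greatest where the sum was smallest, at 41.7% in WT_220 and 43.0% in KO_117. In KO_117, Runx3 reached 11.8% of the sum, against 0.278% to 1.57% in the other libraries. These are ratios of transcripts per length and say nothing of protein.

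**Figure D3:**
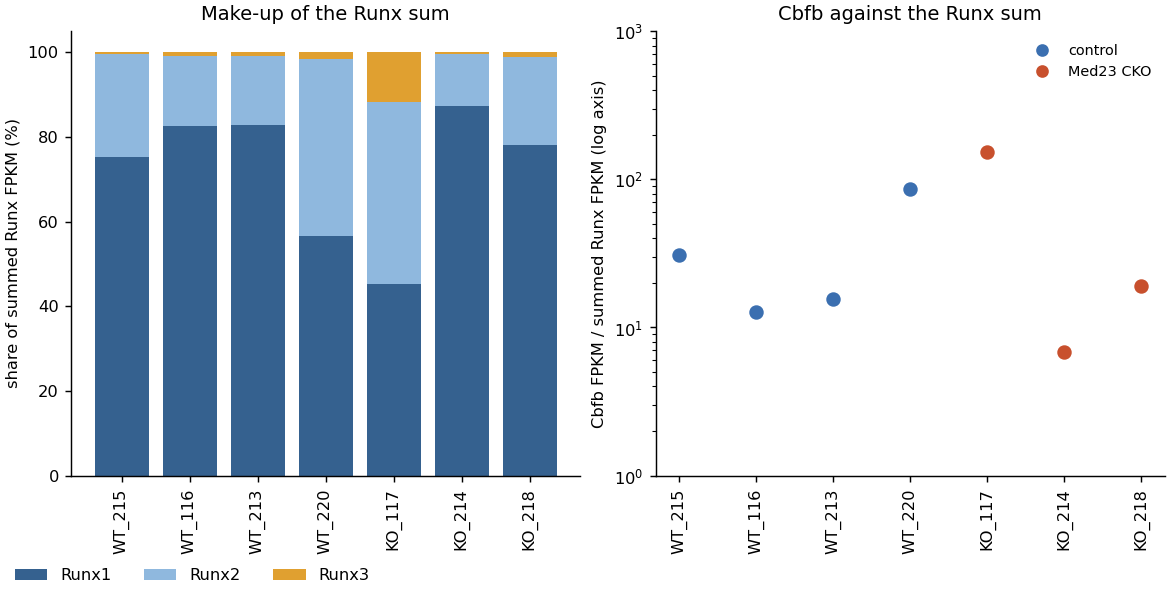
Left, the share of Runx1, Runx2 and Runx3 in their summed FPKM in each library, in percent. Right, Cbfb FPKM divided by that sum on a log axis, with control in blue and Med23 CKO in red, which runs from 6.81 in KO_214 to 152 in KO_117.

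Because Runx1 and Runx2 are also used outside the neural lineage, markers of the other cell types a hippocampal culture could hold were put beside them. In bulk RNA, fewer cells of a type and less RNA per cell cannot be told apart. The summed markers of microglia and macrophages were 174, 350, 481 and 79.7 FPKM in control libraries WT_215, WT_116, WT_213 and WT_220. In KO_117, KO_214 and KO_218 of the Med23 CKO group they were 81.8, 2071 and 371 FPKM. Like Runx1, this sum was highest in KO_214 and lowest in the pair KO_117 and WT_220, whose values were nearly the same. From WT_213 to KO_214 the summed markers went from 481 to 2071 FPKM while Runx1 went from 3.99 to 7.72 FPKM. The summed markers of endothelial cells were 15.0 to 87.9 FPKM in control and 15.4 to 149 FPKM in Med23 CKO, and those of fibroblasts, mural cells and osteogenic mesenchyme 42.2 to 141 FPKM and 29.8 to 460 FPKM. Those of neural stem cells were 1927 to 3972 FPKM in control and 2125 to 3982 FPKM in Med23 CKO.

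The layout of Runx1 and Runx2, with the highest value in KO_214 and both lowest values in KO_117 and WT_220, was counted among the markers. It was held by 16 of 19 microglial and macrophage markers that were tested, 8 of 12 of the fibroblast and mural list and 6 of 10 endothelial markers. By contrast it was held by 2 of 13 neural stem cell markers, 0 of 7 markers of the oligodendrocyte lineage and 0 of 6 neuronal markers. Over all 14151 genes tested, 1867 (13.2%) had it. The layout was taken from the values of Runx1, so these counts are a description. Among the microglial markers, Tyrobp was at 14.3 to 110 FPKM in control and at 16.0, 492 and 79.7 FPKM in KO_117, KO_214 and KO_218, and Ctss at 7.60 to 68.3 FPKM and at 7.76, 375 and 64.8 FPKM. P2ry12 and Cx3cr1, which mark resting microglia, were at or below 1.60 and 0.783 FPKM in all libraries. The median log2 fold change of the 19 microglial and macrophage markers was 0.86, and -0.25 without KO_214. The medians of the endothelial markers (0.49) and of the fibroblast and mural markers (0.65) also turned without KO_214, to -0.14 and -0.25. Those of the 13 neural stem cell markers (-0.26, and from -0.54 without KO_117 to -0.044 without WT_220), the 7 oligodendrocyte lineage markers (-0.73, but -0.0097 without KO_117) and the 6 neuronal markers (-0.089, and 0.12 without WT_116) were below 0, and 0 of the 6 T and NK cell markers could be tested. What part these cells had in the levels of Runx1 and Runx2 was not tested.

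**Figure D4:**
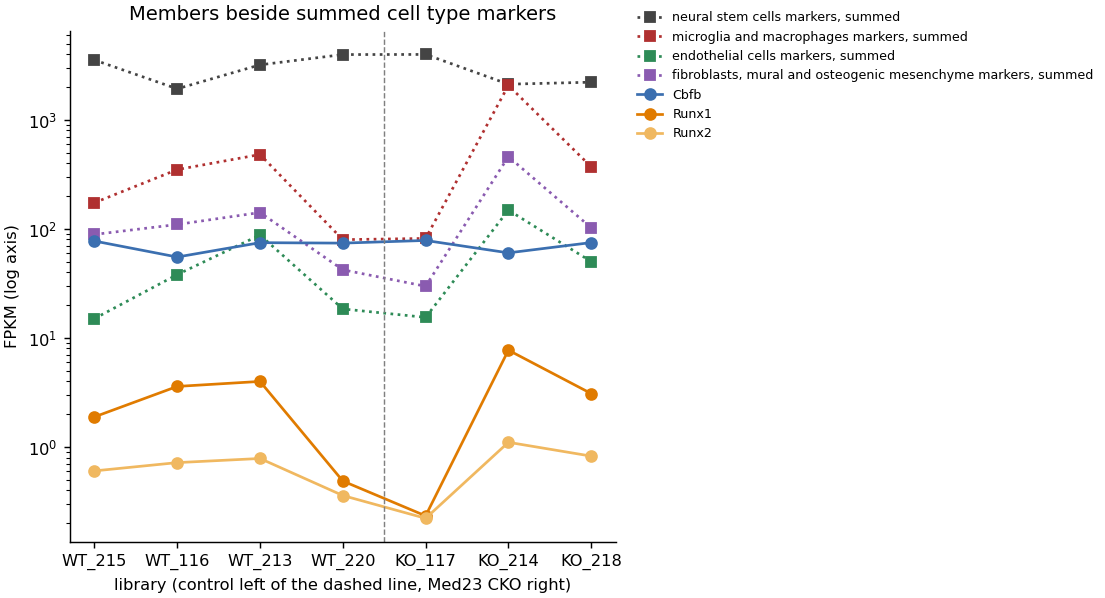
Summed FPKM of 4 marker lists (squares, dotted) and FPKM of Cbfb, Runx1 and Runx2 (circles, solid) in each library, on a log axis, with control left and Med23 CKO right of the dashed line; lines only join the points of one gene or list. Runx1, Runx2 and the summed markers of microglia, endothelium and mesenchyme share their peak in KO_214, at 7.72 FPKM for Runx1. Cbfb and the summed neural stem cell markers do not. Of all genes tested, 25.4% have their highest value in KO_214.

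The genes whose levels followed the members most closely were looked up among all genes tested, over the 7 libraries and as a description, since the best of so many genes will fit 7 points closely. Nearest to Runx1 were Mitf, a transcription factor of melanocytes and osteoclasts (Pearson r = 0.998, Spearman rho = 0.964), Anxa5 (r = 0.997), Nr3c2, the mineralocorticoid receptor (r = 0.996), Anxa1 (r = 0.995) and Myof (r = 0.995). Anxa5 and Anxa1 encode annexins, which bind membrane phospholipids with calcium. Mitf was at 3.32, 6.15, 6.07 and 1.43 FPKM in WT_215, WT_116, WT_213 and WT_220 and at 0.953, 10.9 and 5.47 FPKM in KO_117, KO_214 and KO_218. Nearest to Runx2 were Chchd10, Dcun1d3 and Ccdc3 (r = 0.994 each), Sdcbp and Anxa1 (r = 0.993 each), so that Anxa1 stood in both lists. Nearest to Cbfb were Zfp27 (r = 0.980), Tbc1d31 (r = 0.975), Nrep (r = 0.960), Brwd3 (r = 0.959) and the zinc finger activator Zfp143 (r = 0.958). Zfp27 was at 5.28 FPKM in WT_116 and 5.92 FPKM in KO_214 and between 6.81 and 7.53 FPKM in the other libraries, so it shared with Cbfb its pair of lowest libraries.

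Many genes for proteins that work with Runx factors were measured well above the Runx genes themselves, on the FPKM scale. The list of Groucho and ETO family genes, which also held other genes such as Hdac1 and Hdac3, numbered 16, of which 14 could be tested. Aes was at 160 to 386 FPKM in control and 123 to 314 FPKM in Med23 CKO, Hdac3 at 47.0 to 67.6 FPKM and 38.6 to 73.6 FPKM, and Hdac1 at 40.0 to 49.3 FPKM and 47.4 to 57.8 FPKM. Runx1t1, the ETO gene that is fused to RUNX1 in leukemia, was at 0.198 to 0.562 FPKM in control and 0.523 to 0.567 FPKM in Med23 CKO. For 12 of the 14 genes the mean was lower in Med23 CKO and for 2 it was higher, with a median log2 fold change of -0.082 (0.048 without KO_214), and none had an unadjusted p under 0.05 (0 genes). Of the 10 coactivators and chromatin partners, such as the arginine methyltransferase Prmt1 (110 to 248 FPKM in control, 93.4 to 284 FPKM in Med23 CKO), 8 had a lower and 2 a higher mean, with a median of -0.16 (0.038 without KO_218), again with 0 at an unadjusted p under 0.05. Over all genes tested, 7955 had a lower and 6196 a higher mean, with a median log2 fold change of -0.031.

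Among the DNA-binding partners, 21 of 26 could be tested, of which 14 had a higher and 7 a lower mean (median log2 fold change 0.066, and -0.13 without KO_214), with 0 at an unadjusted p under 0.05. Some of these were neural genes at high levels, such as Sox9 (15.8 to 58.8 FPKM in control, 18.3 to 44.6 FPKM in Med23 CKO). Spi1, the macrophage factor PU.1, was measured at 1.03 to 9.80 FPKM in control and at 1.76, 55.0 and 4.47 FPKM in KO_117, KO_214 and KO_218. Dlx5, a bone factor, was at or below 0.105 FPKM. All 13 kinases, ubiquitin ligases and other enzymes that act on Runx proteins were tested, with 8 means higher and 5 lower (median 0.042, and -0.14 without KO_117) and 0 at an unadjusted p under 0.05. The kinase Akt1 was the most abundant, at 58.8 to 125 FPKM in control and 54.3 to 171 FPKM in Med23 CKO.

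The classical targets of the Runx factors are given by counts and medians, and a common direction was not tested. Of 16 genes of osteoblasts and chondrocytes that Runx2 is known to drive, 10 could be tested, 7 with a higher and 3 with a lower mean (median 0.48, but -0.34 without KO_214), and 0 had an unadjusted p under 0.05. Genes particular to bone differed in level. Ibsp stayed at or below 0.0469 FPKM and Sp7, the osteoblast factor downstream of Runx2, at or below 0.473 FPKM. Bglap and Bglap2 went higher, with ranges over the 7 libraries of 0.181 to 1.47 FPKM and 0 to 3.22 FPKM. Spp1, encoding osteopontin, which microglia also make, was at 330, 922, 644 and 97.6 FPKM in WT_215, WT_116, WT_213 and WT_220, and at 69.9, 5420 and 733 FPKM in KO_117, KO_214 and KO_218. Like Runx1 and Runx2 it was lowest in KO_117, next lowest in WT_220 and highest in KO_214. The list holds Col1a1 and Col1a2, which stand also among the fibroblast markers.

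Of 14 blood cell genes that Runx1 is known to control, 6 could be tested, 4 with a higher and 2 with a lower mean (median 0.55, but -0.22 without KO_214), and 2, Elane and Il3, were listed at 0 in every library. Spi1 and Csf1r of this list are also microglial markers. Pf4, encoding platelet factor 4, was the 1 gene with an unadjusted p under 0.05. It was at 1.15, 1.47, 1.15 and 1.20 FPKM in WT_215, WT_116, WT_213 and WT_220 and at 7.55, 2.14 and 3.86 FPKM in KO_117, KO_214 and KO_218. The groups did not overlap, Med23 CKO being higher, as for 0.784% of all genes tested, and 0.502% were higher at an unadjusted p under 0.05. The log2 fold change of Pf4 was 1.18 (standard error 0.34, limma, adjusted p = 0.9999, and from 0.594 to 1 over the alternatives), so the gene did not pass. Its highest value was in KO_117, where Runx1 was lowest.

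Of 14 targets in sensory neurons and lymphocytes, 6 could be tested, 3 with a higher and 3 with a lower mean (median -0.030, and 0.14 without KO_117) and 0 at an unadjusted p under 0.05. The neurotrophin receptors Ntrk2 (31.9 to 59.3 FPKM in control, 45.0 to 55.1 FPKM in Med23 CKO) and Ntrk3 (6.39 to 26.2 FPKM and 8.17 to 23.6 FPKM) were abundant. Of the lymphocyte genes, Zbtb7b was also among the 3 highest of this list by mean FPKM (limma, unadjusted p = 0.929). The lymphocyte genes Cd8a, Gzmb and Prf1, in contrast, were at or below 0.0572 FPKM. All 5 growth control targets were tested, 1 with a higher and 4 with a lower mean (median -0.11, and 0.003 without KO_218) and 0 at an unadjusted p under 0.05. Cdkn1a, the cell cycle inhibitor p21, was at 324 to 520 FPKM in control and at 178, 476 and 327 FPKM in KO_117, KO_214 and KO_218. In the fibroblast and mural marker list, 1 gene, Prrx1, a mesenchymal homeobox factor, had an unadjusted p under 0.05 and was named after its values were seen. It was at 6.95 to 11.9 FPKM in control and at 17.5, 15.9 and 13.9 FPKM in KO_117, KO_214 and KO_218. The log2 fold change was 0.81 (standard error 0.22, limma, adjusted p = 0.9999). Prrx1 was highest in KO_117, whereas the other 11 genes of that list were highest in KO_214.

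**Figure D5:**
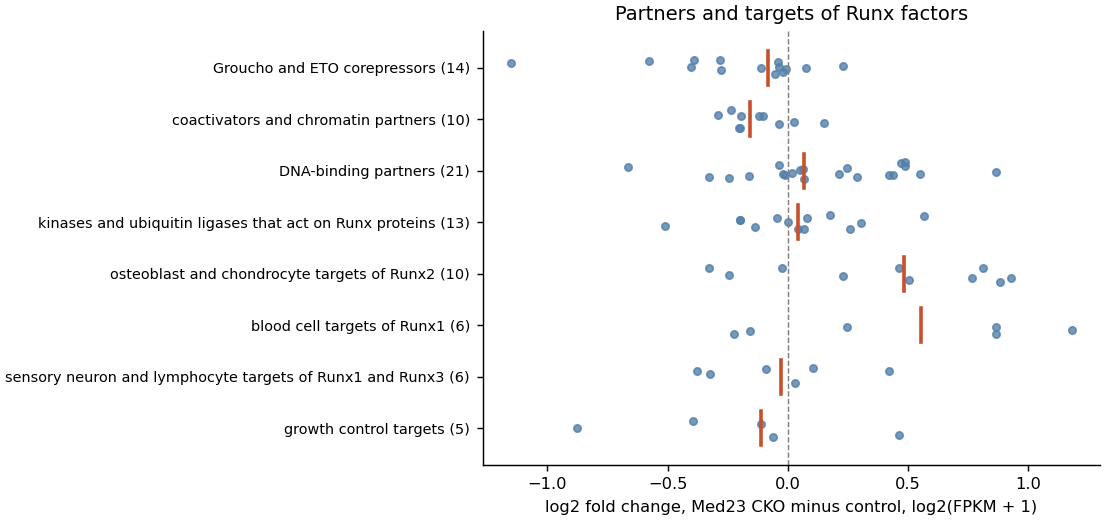
Log2 fold change of Med23 CKO against control on log2(FPKM + 1) for each tested gene (circle) of the 8 lists of partners and targets, with the number tested in brackets and the median of each list as a red bar. The medians run from -0.16 for the coactivators to 0.55 for the blood cell targets, against -0.031 over all genes tested.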

How the data were processed

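RNA of 7 libraries was analysed, 4 control and 3 Med23 CKO, grouped by sample title. The paper counts 3 mice per group and does not name the controls it used, so all 4 labelled controls were kept. The authors removed adapters with cutadapt, mapped the reads to mm10 by TopHat, and deposited the FPKM that Cuffdiff gave for each gene and library; the annotation is not given in the sources used here. The authors also deposited group means in FPKM and their own comparison (a log2 fold change, a test score, p-values and q-values), none of which was used. Low FPKM values fell on no steps of whole fragments (at most 4.01% of low genes in one bin of 0.05 log2, over 21 pairs of libraries), so the depth and the precision it gives are unknown, and the number of libraries limits the precision. The libraries were separate mice, and 0 pairs held identical values.

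FPKM was put on the log2 scale after adding 1 (the pseudocount), and the groups were compared over 14151 genes with a mean of at least 0.5 FPKM by limma 3.58.1 (trend, two-sided, Benjamini-Hochberg) in R 4.3.3. Single genes were compared by exact permutation over 35 splits in Python 3.11.15. The sign-flip test planned for neighbours in level is not printed, since their order was read from the same libraries. The fit was first tested on simulated data with normal noise, in which 200 of 14151 genes were changed by 2 on the log2 scale. At an adjusted p under 0.05, 120 of these 200 and 9 unchanged genes were called, so changes of this size can be missed. Sequences came from RefSeq (GRCm38.p6, all 4 members matched) and GENCODE M21; protein sequences were not used here. The alternatives were a pseudocount of 0.1, no filter, a mean of at least 1 FPKM, quantile normalization, centring on the median, limma without trend, with array weights or with robust variances (statmod 1.5.0), a covariate for the leading digit of the mouse number, group mean ratios and each library left out.

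The members, the 15 gene lists and the alternatives were chosen with earlier results of these data known. The genes named are the members, Med23, from each list the 3 with the highest mean FPKM and those with an unadjusted p under 0.05 or at 0, and the 5 nearest to each member by Pearson's r; others were named after their values were seen.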

Additional observations from a re-analysis of the deposited data

Results flagged for a closer look

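Among 66 named genes, the control libraries were searched for one that stood apart from the other 3 by more than Dixon's 95% limit. Chance alone flags about 1 gene in 20. Cbfb was set apart by its low value in WT_116, 55.2 FPKM, against 74.1 to 77.4 FPKM in the other controls. Zfp27 was set apart in the same library at 5.28 FPKM. It was named for its likeness to Cbfb over these same libraries, so its flag is not separate from that of Cbfb. Vegfa stood apart in WT_220 at 156 FPKM, against 26.3 to 30.4 FPKM in the other controls, and was at 168 FPKM in KO_117. Pf4 was just past the limit in WT_116, at 1.47 FPKM against 1.15 to 1.20 FPKM.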

How the results depend on the processing

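No paired analysis was possible because the mouse numbers of the 2 groups do not coincide. The direction of Runx1 turned with a pseudocount of 0.1, to -0.016 on the log2 scale, and the cause was not tested. Limma and the exact permutation test share this value, since both use the difference in group means. With one library left out, Runx1 ran from -0.49 to 0.92, Runx2 from -0.11 to 0.29, Cbfb from -0.091 to 0.13, Med23 from -0.32 to -0.19 in log2 fold change, and Runx3 from 0.014 to 0.039 in mean log2(FPKM + 1), so Runx1, Runx2 and Cbfb had either sign and passed the threshold under none of these. The sign turned without KO_214 or WT_220 for Runx1 (-0.49 and -0.20), without KO_214, WT_220 or KO_218 for Runx2 (-0.11, -0.023 and -0.0041), and without WT_116, KO_117 or KO_218 for Cbfb (-0.091, -0.053 and -0.021). Genes higher at an adjusted p under 0.05 numbered 0, and 1 without KO_214 or without KO_218; genes lower numbered 0 throughout. At an unadjusted p under 0.05, 71 genes were higher and 141 lower; these were 195 and 273 without a filter, 193 and 887 with array weights, and from 44 to 362 higher and from 71 to 410 lower with one library left out. Among the runs with one library left out, the highest counts came without KO_117. Cbfb above Runx1, Runx1 above Runx2 and Runx2 above Runx3 kept their sign under each alternative tried. Of the list medians, 1 moved by more than the spread between libraries, that of the blood cell targets, to 0.01 without a filter, -0.01 with array weights and -0.22 without KO_214. The array weights stopped before full convergence. Runx2 fell under the limit of 1 FPKM and has no value there.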

Other observations

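The genes that ran most opposite to the Runx factors over the 7 libraries, looked up after the values were seen and given as a description, were as follows. For Runx1 they were G0s2, an inhibitor of the lipase of fat droplets (Pearson r = -0.997), Tmem97, Pmvk, an enzyme of the mevalonate pathway to cholesterol, the translation factor Eif4a1 and the ribosomal protein gene Rps23. For Runx2 they were Osgep, Pmvk, Hes6, Rpsa and Sf3a3, so that Pmvk stood in both lists. Pmvk was at 39.2, 32.5, 28.6 and 65.2 FPKM in WT_215, WT_116, WT_213 and WT_220 and at 75.8, 19.0 and 28.3 FPKM in KO_117, KO_214 and KO_218. KO_117 and WT_220, which belong to different groups, were thus the highest for Pmvk and for Vegfa, and the lowest for Runx1 and Runx2. Of all 14151 genes tested, 42.1% had their lowest value in KO_117 or WT_220.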
